A study of Mus musculus with 6 samples.

Results

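The genes described here encode the proton pump, hydrolases and membrane proteins of the lysosome. The list of 36 was fixed by name, and it was chosen with earlier results of these data known. It holds 15 subunits of the vacuolar ATPase, 11 hydrolases, 3 soluble cofactors, 6 proteins of the lysosomal membrane, and Tfeb, a transcription factor of lysosomal genes. A probe set that belonged to 1 gene measured 35 of them, among 18193 genes in all. Atp6v0c, the main proteolipid of the pump, had no such probe set in the annotation used and was not analysed here. RNA came from white adipose tissue of 6 female mice of strain C57Bl6 aged 6 months, 3 wild type and 3 homozygous for a knockout of Ksr2 (KSR2-/-), with 1 Affymetrix array per mouse. KSR2 is a scaffold of the Raf-MEK-ERK cascade. The labels name neither the fat depot nor the deleted part of Ksr2, nor any tissue-specific driver.

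Lysosomes break down lipid, protein and sugar chains taken in from outside or delivered by autophagy. Their enzymes need an acid interior, which the vacuolar ATPase maintains: its peripheral V1 sector hydrolyses ATP and its membrane sector V0 moves protons. In fat, lysosomes of adipocytes take part in lipid turnover, and macrophages that surround dying adipocytes are rich in lysosomes. Members of the MiT/TFE family, to which TFEB belongs, bind E-box sequences upstream of many lysosomal genes.

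The 6 arrays had median linear intensities between 22.4 and 24.2. The Ksr2 probe set read 4.04 to 4.74 log2 in wild type and 4.26 to 4.47 in knockout, which overlapped (difference −0.08, SE 0.21, limma adjusted p = 0.935), and since the deleted part is unknown this gave no check of the labels. Fabp4 and Adipoq, the brightest of the 6 measured adipocyte markers, read at least 12.70 on every array. The lowest reading among the 6 was 9.38, for Pparg in knockout 1. The animal numbers in the labels were split at 6000, a limit chosen for this report. Above it lie animals 1 and 2 of each genotype, named the higher-numbered series here. Animal 3 of each genotype lies below it, and these form the lower-numbered pair. Within the series, knockouts 1 and 2 have close numbers, and wild types 1 and 2 have close numbers in a separate run. Genotype and number run therefore go together there, and differences within the series or the pair are not matched comparisons. Wild type 3 had a 3' minus 5' difference of the Gapdh control probe sets of 4.18 log2, against 0.0668 to 1.46 on the other arrays, a sign of RNA quality that goes with lower integrity as it grows.

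Because MiT/TFE factors bind E-boxes upstream of many lysosomal genes, the promoters of the members are shown first. RefSeq promoter windows (GRCm38.p6, 250 bases before to 50 after a transcription start) were matched for 30 of the 36 genes, without Atp6v1b2, Atp6v1c1, Atp6v1g1, Atp6v1h, Asah1 and Npc1. The E-box core CACGTG, which reads the same on both strands, was in a window of 11 of these 30 genes (36.7%) and of 8.09% of the 27025 genes with windows. The longer TCACGTG, searched on both strands and always overlapping a core, was in the same 11 genes and in 4.29% of all. The full CLEAR palindrome, which is TCACGTGA with a G before it and a C after it, was in 1 of the 30, Cln3, and in 0.37% of all. A match describes the letters only and shows no binding. The stretches below show the cores that lie wholly upstream of the start in 9 of the 11 genes, from 5′ to 3′ on the gene's strand, with the core, or TCACGTGA where it is whole, in capitals. In Atp6v0d1 and Atp6v0e the core lies across or just past the start and is not printed.
Lamp1, chr8:13159078-13159160, plus strand: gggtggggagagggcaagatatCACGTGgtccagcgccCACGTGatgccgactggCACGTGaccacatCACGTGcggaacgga
Atp6v0b, chr4:117887330-117887387, minus strand: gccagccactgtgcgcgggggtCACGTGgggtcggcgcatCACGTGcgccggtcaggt
Atp6v1a, chr16:44139363-44139412, minus strand: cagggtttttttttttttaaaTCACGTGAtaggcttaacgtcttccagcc
Gla, chrX:134601172-134601254, minus strand: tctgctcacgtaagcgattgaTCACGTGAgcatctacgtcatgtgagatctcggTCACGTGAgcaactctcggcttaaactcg
Glb1, chr9:114401008-114401057, plus strand: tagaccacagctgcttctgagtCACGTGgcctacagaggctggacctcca
Gaa, chr11:119267801-119267850, plus strand: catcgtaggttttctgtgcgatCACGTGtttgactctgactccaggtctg
Naglu, chr11:101069999-101070048, plus strand: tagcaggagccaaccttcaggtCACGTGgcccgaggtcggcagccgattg
Mcoln1, chr8:3500426-3500501, plus strand: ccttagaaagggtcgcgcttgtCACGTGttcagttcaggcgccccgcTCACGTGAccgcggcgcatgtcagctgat
Cln3, chr7:126583330-126583407, minus strand: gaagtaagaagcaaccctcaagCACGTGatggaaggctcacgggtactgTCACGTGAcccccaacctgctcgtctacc
Lamp1 holds 4 cores, between 61 and 15 bases before its start, and Gla holds 2 copies of TCACGTGA, which begin 1 base before the cores at 227 and 194.

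Knockout means lay above wild-type means for 34 of the 35 measured members, where 44.4% of all genes did so. Gla, Gusb and Atp6v0a1 had the largest differences, 1.68, 1.62 and 1.53 log2, and Atp6v1d was the 1 member with a lower knockout mean (−0.13). The median member differed by 0.45 log2 and the median of all genes by −0.04. The shares over all genes were not matched to the members in brightness, and members were brighter than most genes. Among the 9097 genes at or above the median mean, the median member differed by 0.45 and the median gene by 0.03. No member passed limma at an adjusted p under 0.05 (0.0055% of all genes did, 1 gene), and the lowest adjusted p among members was 0.109, for Atp6v0a1. An unadjusted limma p under 0.05 was reached by 13 of 35 members with higher and 0 with lower knockout means, where all genes gave 6.71% higher and 5.38% lower. All 3 knockouts lay above all 3 wild types in 17 members (7.72% of all genes) and below them in 0 (8.56% of all genes). In some of the 17 the gap was very small. The nearest knockout and wild type read 11.82 and 11.82 in Lamp1, and 6.70 and 6.69 in Neu1. They read 10.78 and 10.76 in Hexa, and 10.40 and 10.38 in Atp6ap1. Knockout 3 was the lowest knockout in 65.7% of members and in 28% of all genes, and wild type 1 the lowest wild type in 71.4% and 53.3%. Leaving out 1 array moved the difference by over 1.5 times in 21 members, of which 0 were among the 13 and 7 changed sign. The 13 were picked by p on these same arrays, so the 0 is no separate check of them. The count of 13 was 8 without knockout 1 and 8 without knockout 2. Without knockout 3, 7 members passed at an adjusted p under 0.05, all higher (3.16% of all genes were called higher in that fit): Atp6v0a1, Atp6v1b2, Atp6v1c1, Hexa, Gla, Man2b1 and Npc1. With any other single array left out, 0 members passed.

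**Figure D1:**
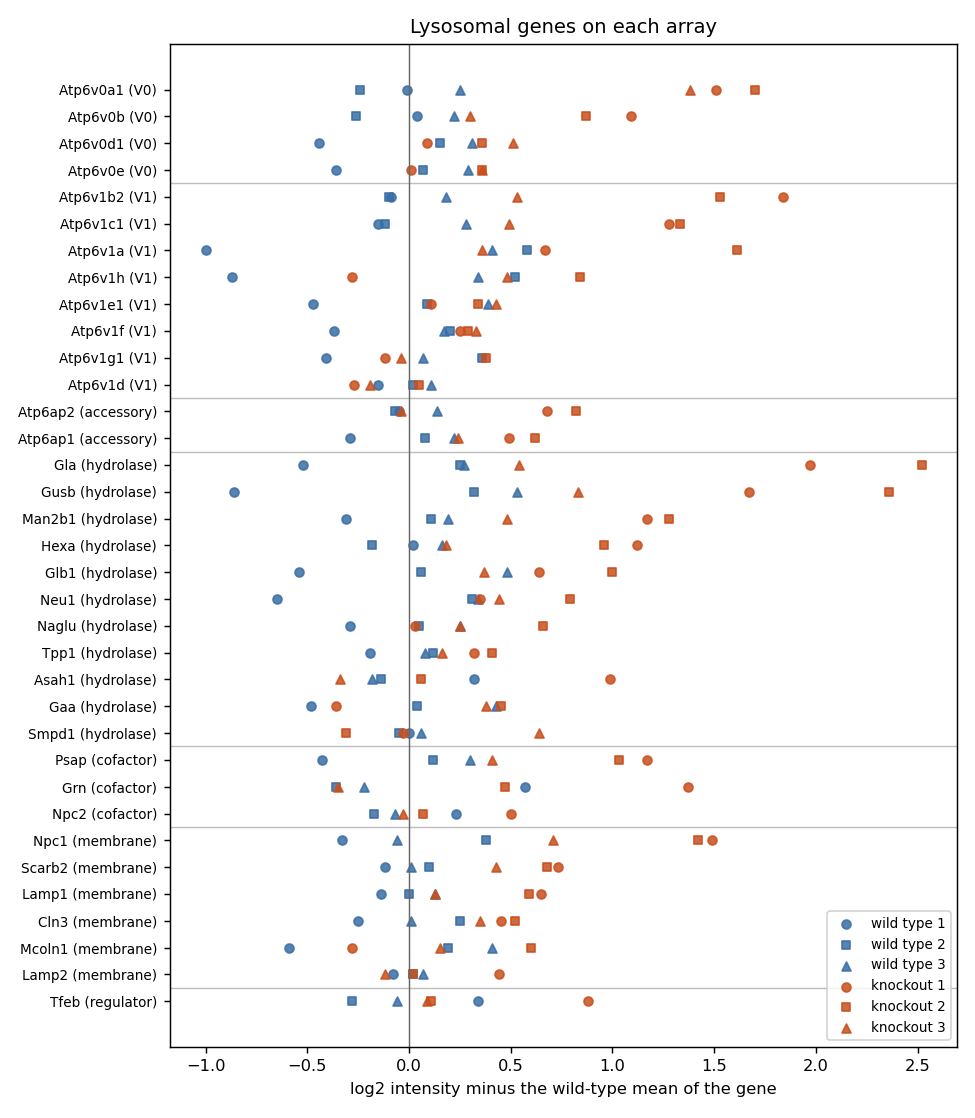
Each row is 1 measured gene and each point 1 array, as log2 intensity minus the wild-type mean of that gene; blue is wild type, orange is knockout, and circles, squares and triangles are animals 1, 2 and 3. Knockout 3 (orange triangles) is the lowest knockout in 23 of 35 genes, and wild type 1 (blue circles) the lowest wild type in 25.

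**Figure D2:**
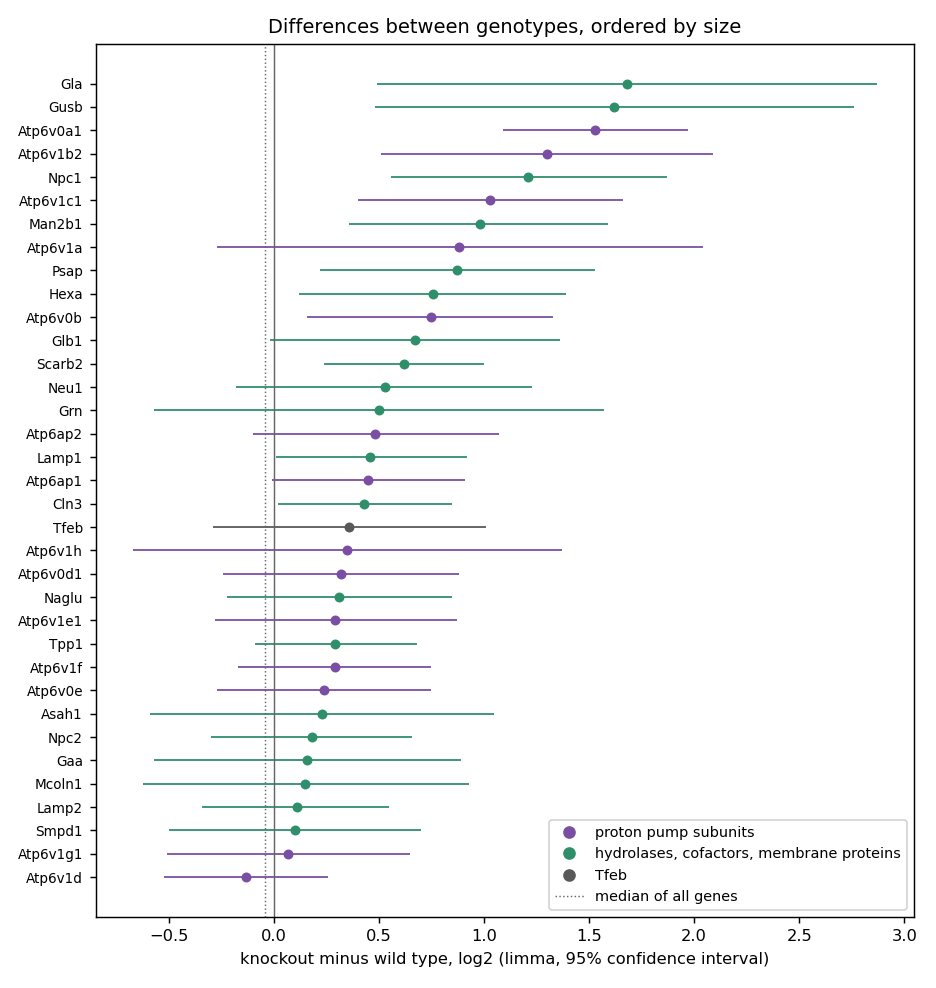
Knockout minus wild-type log2 differences of the 35 genes with 95% confidence intervals from limma, in order of size, coloured by group; the dotted line is the median of all genes, −0.04. The interval lies above 0 in 13 genes, and none lies below 0.

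In the V0 sector, Atp6v0a1, subunit a1, which lines the proton path and helps to target the pump, read 6.96, 6.73 and 7.22 log2 in wild type and 8.48, 8.67 and 8.35 in knockout, in the order of animals 1 to 3 used from here on. The groups did not overlap, and knockout 3 lay close to the other knockouts. The difference was 1.53 (SE 0.19, 2.88-fold, limma adjusted p = 0.109), and it measured 1.73 among the higher-numbered animals and 1.13 in the lower-numbered pair. Without knockout 3 it was 1.60 (limma adjusted p = 0.015), and over all alternatives the adjusted p ran from 0.015 to 0.55. Atp6v0b, the c'' proteolipid of the rotor, read 10.04, 9.74 and 10.22 in wild type and 11.09, 10.87 and 10.30 in knockout. Knockout 3 stood just above wild type 3, so that the difference of 0.75 (SE 0.25, limma adjusted p = 0.314) came to 1.09 among the higher-numbered animals and 0.07 in the pair. Atp6v0d1 (0.32, SE 0.24) and Atp6v0e (0.24, SE 0.22), which encode the stalk-coupling subunit d1 and the small subunit e, overlapped between genotypes.

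The V1 sector was uneven. Atp6v1b2, the B2 subunit of the catalytic head, read 9.18, 9.17 and 9.45 in wild type and 11.11, 10.80 and 9.80 in knockout. The groups did not overlap, but knockout 3 lay nearer to the wild types than to the other knockouts (difference 1.30, SE 0.33, limma adjusted p = 0.248, and 1.69 with adjusted p = 0.0104 without knockout 3). Atp6v1c1, subunit C1, which governs whether V1 stays attached to V0, read 9.82, 9.85 and 10.25 against 11.25, 11.30 and 10.46, again with knockout 3 next above the wild types (difference 1.03, SE 0.27, limma adjusted p = 0.248, and 1.30 with 0.0251 without knockout 3). Atp6v1a, the ATP-hydrolysing A subunit, read 8.08, 9.66 and 9.49 in wild type and 9.75, 10.69 and 9.44 in knockout. Wild type 1 was low and the groups overlapped, and the difference of 0.88 carried an SE of 0.49. It was 0.38 without wild type 1 and 0.52 without knockout 2.

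The remaining V1 subunits form the stalks and the regulatory cap. Differences were 0.35 (SE 0.43) for Atp6v1h, 0.29 (SE 0.24) for Atp6v1e1, 0.29 (SE 0.20) for Atp6v1f, 0.07 (SE 0.25) for Atp6v1g1 and −0.13 (SE 0.16) for Atp6v1d. Atp6v1d, the central rotor shaft, read 10.10, 10.27 and 10.36 against 9.98, 10.30 and 10.06, and its interval (−0.52 to 0.26) excludes a difference of the size measured for Atp6v1b2. The sign for Atp6v1g1 turned with the mean of all probe sets (−0.08), with plain probe sets preferred (−0.20), and without wild type 1 (−0.14) or knockout 2 (−0.09). Of the accessory proteins, Atp6ap1, which assists assembly, differed by 0.45 (SE 0.20) without overlap, and Atp6ap2, the prorenin receptor, by 0.48 (SE 0.25) with overlap. Knockout 3 lay at −0.04 from the wild-type mean of Atp6ap2, while knockouts 1 and 2 were 0.68 and 0.82 above it. In all, 4 of the 14 measured pump genes had higher knockout means at an unadjusted limma p under 0.05 (6.71% of all genes), and 6 had all knockouts above all wild types (7.72% of all genes).

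Among the hydrolases all 11 had higher knockout means (44.4% of all genes), and 4 did so at an unadjusted limma p under 0.05 (6.71% of all genes). Gla, α-galactosidase A, which removes terminal galactose from globotriaosylceramide and is the enzyme lacking in Fabry disease, read 4.79, 5.56 and 5.58 in wild type and 7.28, 7.83 and 5.85 in knockout. Knockouts 1 and 2 stood far above the rest, and knockout 3 just above the wild types (difference 1.68, SE 0.50, 3.21-fold, limma adjusted p = 0.285, and 2.25 with 0.0176 without knockout 3). The limma adjusted p of Gla ran from 0.39 to 0.758 with any other single array left out. Gusb, β-glucuronidase, which takes part in the breakdown of glycosaminoglycans, read 7.54, 8.72 and 8.93 against 10.07, 10.76 and 9.23. Here wild type 1 was low as well as knockout 3 being the lowest knockout, and the difference was 1.62 (SE 0.48, 3.07-fold, limma adjusted p = 0.285).

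Man2b1, lysosomal α-mannosidase, read 8.95, 9.37 and 9.45 in wild type and 10.43, 10.54 and 9.74 in knockout (difference 0.98, SE 0.26, limma adjusted p = 0.252, and 1.23 with 0.0343 without knockout 3). Hexa, the α subunit of β-hexosaminidase, which is lacking in Tay-Sachs disease, read 10.62, 10.42 and 10.76 against 11.72, 11.56 and 10.78 (difference 0.76, SE 0.27, limma adjusted p = 0.338, and 1.04 with 0.0374 without knockout 3). In both genes knockout 3 lay next above the wild types, as for Atp6v1c1. Glb1, β-galactosidase, differed by 0.67 (SE 0.29) with overlap, and Neu1, the lysosomal sialidase, by 0.53 (SE 0.30) without. In Neu1 knockout 1, at 6.70, stood barely above wild type 3, at 6.69. Both intervals held 0 (−0.02 to 1.36 for Glb1 and −0.18 to 1.23 for Neu1). Differences of Naglu (0.31), Tpp1 (0.29), Asah1 (0.23), Gaa (0.16) and Smpd1 (0.10) also had intervals that held 0. These act on heparan sulfate, peptides, ceramide, glycogen and sphingomyelin. Smpd1, acid sphingomyelinase, was the 1 hydrolase highest in knockout 3: it read 8.73, 8.68 and 8.79 in wild type and 8.70, 8.42 and 9.37 in knockout.

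The soluble cofactors bind or present lipids and other proteins to the enzymes. Psap, the precursor of the saposins that present sphingolipids to hydrolases, read 11.49, 12.04 and 12.22 in wild type and 13.09, 12.95 and 12.33 in knockout (difference 0.87, SE 0.28, limma adjusted p = 0.302). Its groups did not overlap, and the difference measured 1.25 among the higher-numbered animals and 0.11 in the pair. Grn, progranulin, read 11.66, 10.73 and 10.87 against 12.46, 11.56 and 10.74, and wild type 1 lay above knockouts 2 and 3 (difference 0.50, SE 0.45). The difference was 0.06 without knockout 1, 0.32 without wild type 2, 0.78 without wild type 1 and 0.92 without knockout 3. Npc2, which carries cholesterol to the membrane, differed by 0.18 (SE 0.20).

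All 6 membrane proteins had higher knockout means (44.4% of all genes), and 4 had all knockouts above all wild types (7.72% of all genes). Npc1, which exports cholesterol from the lysosome, read 5.04, 5.75 and 5.31 in wild type and 6.86, 6.79 and 6.08 in knockout. All knockouts lay above all wild types, and the shift was present in the pair as well (difference 1.21, SE 0.28, limma adjusted p = 0.23). It measured 1.43 among the higher-numbered animals and 0.78 in the pair. Without knockout 3 it was 1.46 (limma adjusted p = 0.0309). Scarb2, or LIMP-2, the sorting receptor of glucocerebrosidase, read 9.68, 9.90 and 9.81 against 10.53, 10.48 and 10.23. Its arrays were tight within each genotype (SD 0.11 and 0.16, n = 3 each), and the difference was 0.62 (SE 0.16, limma adjusted p = 0.248). Among the higher-numbered animals it was 0.72, and in the pair 0.41. Lamp1, a major glycoprotein of the lysosomal membrane whose promoter holds the 4 cores shown above, read 11.55, 11.69 and 11.82 against 12.34, 12.28 and 11.82. Knockout 3 was level with wild type 3, and the difference was 0.46 (SE 0.19, limma adjusted p = 0.407). Cln3, lacking in juvenile Batten disease, differed by 0.43 (SE 0.18, limma adjusted p = 0.40). Mcoln1, the calcium channel TRPML1, differed by 0.15 (SE 0.33) and Lamp2 by 0.11 (SE 0.19), both with overlap. Tfeb itself read 7.29, 6.67 and 6.89 in wild type and 7.83, 7.06 and 7.04 in knockout, with wild type 1 above knockouts 2 and 3 (difference 0.36, SE 0.27, limma adjusted p = 0.69).

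The pump was set against the remaining proteins by their median differences, with no test of the difference between them. The median difference was 0.40 log2 over the 14 pump genes (13 higher, range −0.13 to 1.53) and 0.48 over the 20 hydrolases, cofactors and membrane proteins (20 higher, range 0.10 to 1.68), beside −0.04 over all genes. Of all genes, 44.4% were higher. The mean log2 of the pump genes lay 0.52, 0.79 and 0.37 above its wild-type mean in knockouts 1 to 3, and that of the other 20 genes 0.72, 0.78 and 0.28 above. Within the higher-numbered series the medians were 0.56 and 0.70. Within the lower-numbered pair they were 0.07 and 0.06, with 10 of 14 and 14 of 20 genes higher in knockout 3 than in wild type 3. Over all genes the median was −0.03 in the higher-numbered series, with 46.5% of genes higher, and −0.07 in the pair, with 40.4% higher. In 34 of the 35 members the signed difference, knockout minus wild type, was higher in the higher-numbered series than in the pair. The exception was Smpd1, and Atp6v1d was negative in both (−0.05 and −0.30). Opposite signs in the pair and the series were found in 10 members. Without wild type 1 the pump median was 0.20 and that of the other 20 genes 0.39, and with array weights they were 0.29 and 0.42. Members with an E-box core in a promoter window had a median difference of 0.43 (11 genes) and those with a window but no core 0.47 (18 genes).

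Several pump subunits have isoforms that are limited to certain tissues, and 9 of the 10 listed were measured. Of these, 2 were higher at an unadjusted limma p under 0.05 (6.71% of all genes). Atp6v0d2, the d2 isoform known from osteoclasts and macrophages, read 5.91, 5.10 and 5.35 in wild type and 10.86, 10.62 and 6.70 in knockout. Knockouts 1 and 2 lay 5.41 and 5.17 above the wild-type mean, and knockout 3 lay 1.25 above it. Its difference of 3.94 (SE 1.04, 15.4-fold, limma adjusted p = 0.248) was 5.29 without knockout 3 (adjusted p = 0.00128), whereas its partner isoform Atp6v0d1 differed by 0.32. Tcirg1, the a3 isoform of lysosome-rich cells such as osteoclasts, read 6.14, 6.79 and 6.94 against 8.38, 9.14 and 7.37 (difference 1.68, SE 0.45, limma adjusted p = 0.255, and 2.14 with 0.0243 without knockout 3). Atp6v0a2 differed by 0.47 (SE 0.31). Atp6v0e2, outside the rule for named genes and picked after its values were seen, read 6.91 and 7.27 in knockouts 1 and 2, 9.45 in knockout 3 and 8.48 to 8.92 in wild type (difference −0.81, SE 0.62).

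**Figure D3:**
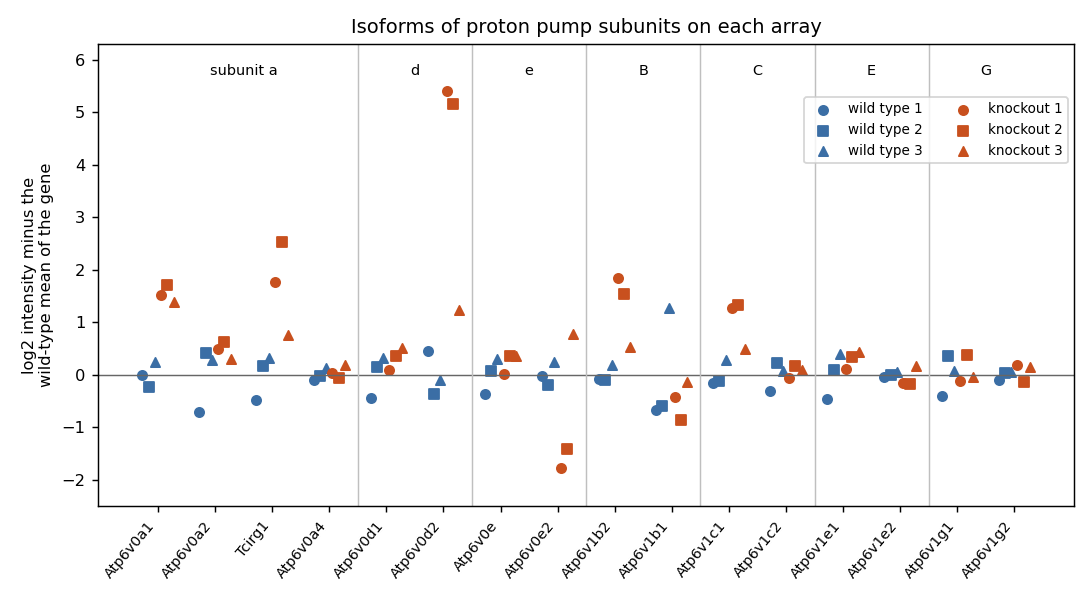
Log2 intensity minus the wild-type mean of the gene for isoforms of 7 pump subunits, 1 point per array, with blue for wild type, orange for knockout and circles, squares and triangles for animals 1, 2 and 3. Atp6v0d2 and Tcirg1 are highest in knockouts 1 and 2, while all 3 knockouts sit close together for Atp6v0a1, between 1.38 and 1.70.

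Beyond the members, 107 of 115 further lysosomal and related genes were measured, with a median difference of 0.19. Of these 22 were higher and 1 lower at an unadjusted limma p under 0.05 (6.71% and 5.38% of all genes), and 0 passed after adjustment. The count of 22 was 13 without knockout 2. Cathepsins, the lysosomal proteases, had a median of 0.74, with 8 of 11 higher (44.4% of all genes). Of these, 6 had an unadjusted p under 0.05 (6.71% of all genes). Ctss differed by 1.69 (limma adjusted p = 0.234), Ctsa, which also protects Neu1 and Glb1, by 1.01 (0.248), and Ctsz by 0.98 (0.248). Among 22 other hydrolases 15 were higher (44.4% of all genes), and 3 of these had an unadjusted p under 0.05 (6.71% of all genes). The 3 were the legumain gene Lgmn (1.95, limma adjusted p = 0.24), the acid lipase gene Lipa, which hydrolyses cholesteryl esters and triglycerides (1.91, 0.303), and the β-mannosidase gene Manba (0.98, 0.398). Lipa read 11.46 and 11.43 in knockouts 1 and 2, 9.13 in knockout 3 and 8.61 to 9.02 in wild type. In the list of 19 other membrane proteins 13 were higher (44.4% of all genes) and 6 lower. Of these, 7 were higher at an unadjusted p under 0.05 (6.71% of all genes). They were led by Cd68, a macrophage glycoprotein (2.47, limma adjusted p = 0.212), the endolysosomal channel gene Tpcn2 (1.88, 0.227) and Ostm1, the partner of the chloride transporter ClC-7 (0.88, 0.234).

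Lists on the control, delivery and use of lysosomes had medians from 0.07 to 0.27. Pump assembly factors had a median of 0.20 and 1 of 7 higher at an unadjusted p under 0.05 (6.71% of all genes). It was Dmxl2 (0.62), followed by Wdr7 (0.40) and Ccdc115 (0.32). Enzyme sorting genes had a median of 0.27 over 9 genes, with 1 higher and 1 lower at an unadjusted p under 0.05 (6.71% and 5.38% of all genes). Those were Nagpa, the uncovering enzyme of the mannose 6-phosphate tag (0.45), and the sorting receptor Sort1 (−0.51), while Igf2r, the mannose 6-phosphate receptor, differed by 0.85. MiT/TFE factors and mTORC1 regulators had a median of 0.17 and 1 of 16 higher at an unadjusted p under 0.05, near the 6.71% of all genes. In that list, among the genes with the smallest p, Tfec, Fnip2 and the GTPase gene Rragd had knockouts 1 and 2 high and knockout 3 at or near wild type: Tfec lay 2.47 and 2.73 above its wild-type mean in the former and −0.27 from it in the latter. Their differences were 1.64, 1.35 and 1.15, and 2.60, 2.09 and 1.71 without knockout 3 (limma adjusted p = 0.00711, 0.0057 and 0.0184). Autophagy genes had a median of 0.07 and 1 of 14 higher at an unadjusted p under 0.05, also near that share: the cargo receptor gene Sqstm1 (0.60, limma adjusted p = 0.303). Uvrag differed by 0.54 and Map1lc3b by −0.40.

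Markers of macrophages stood higher on the same arrays. Their list had 11 of 12 genes higher (44.4% of all genes) and 6 higher at an unadjusted limma p under 0.05 (6.71% of all genes). Its mean log2 per array ran from 8.78 to 8.92 in wild type and from 9.10 to 9.98 in knockout. Lyz2, Csf1r and C1qb, its 3 brightest genes, differed by 0.95, 0.70 and 1.12. The 7 measured markers of lipid-associated macrophages were all higher, each at an unadjusted p under 0.05 (6.71% of all genes), with list means of 7.45 to 7.80 against 9.00 to 11.34. Relative to the wild-type mean, knockouts 1 to 3 lay at 1.14, 1.14 and 0.27 for macrophage markers, at 3.75, 3.72 and 1.42 for lipid-associated macrophage markers, and at 0.65, 0.77 and 0.31 for all members. The lowest reading in either list was 3.77, for Itgam in wild type 3, and no detection calls were used. The part of these cells in the differences of the lysosomal genes was not tested, and in bulk tissue more cells of a type and more RNA per cell cannot be told apart. Adipocyte markers had a median difference of −0.13 (6 genes, 1 higher and 1 lower at an unadjusted p under 0.05, where all genes gave 6.71% and 5.38%).

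**Figure D4:**
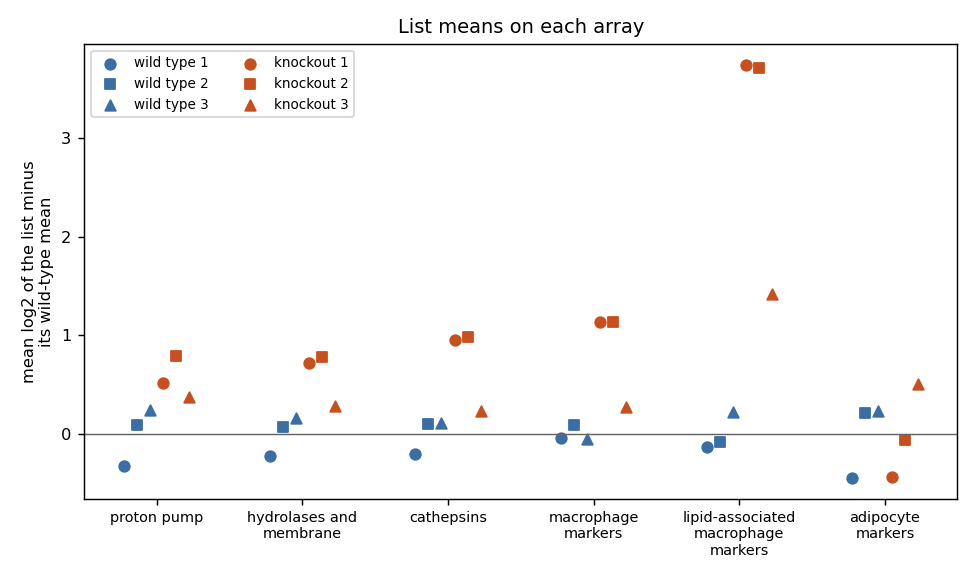
Mean log2 intensity of each gene list on each array minus its wild-type mean; blue is wild type, orange is knockout, and circles, squares and triangles are animals 1, 2 and 3. In the 5 lists other than adipocyte markers every knockout lies above every wild type, and knockout 3 is the lowest knockout, at 0.37 for the pump, 0.28 for hydrolases and membrane proteins and 1.42 for lipid-associated macrophage markers.

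Markers of other cells were also read. Neutrophil (2 genes), mast cell (4) and erythroid (2) lists had 1 gene each higher at an unadjusted limma p under 0.05 (6.71% of all genes). The stromal list (5) had 1 lower (5.38% of all genes). The B cell (3), T cell (5), endothelial (4), mesothelial (4), mammary epithelial (5) and skeletal muscle (5) lists had 0 in either direction. Skeletal muscle and mammary epithelial lists were highest in wild type 3, at 1.69 and 1.29 above their wild-type means. Mesothelial markers were highest in knockout 3, at 1.52 above. The part of these markers in the values of the lower-numbered pair was not tested. Leaving out wild type 3 gave a median difference of 0.52 for the members and 13 at an unadjusted p under 0.05.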

How the data were processed

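Total RNA from 3 wild-type and 3 KSR2-/- mice was measured on 1 Affymetrix array each. The deposited values are RMA intensity values on a linear scale, made by the authors, per the submitters' processing notes; no RMA version was stated, and the linear scale was read from the values. RMA summarises probes over all arrays together. Log2 was taken with no pseudocount (lowest value 2.96). Of 45101 probe sets, 34945 had 1 gene symbol, 932 had several and 9160 non-control probe sets had none in the platform annotation. Of the 34945, 34741 were matched by gene identifier through RefSeq (GRCm38.p6), and the others kept their annotation symbol. Where several probe sets measured a gene alone, the brightest over the 6 arrays stood for it, with no filter on dim genes. Limma 3.58.1 in R 4.3.3 (lmFit, eBayes without trend, prior degrees of freedom 3.06) compared genotypes over all 18193 genes, two-sided, with Benjamini-Hochberg adjustment, and was tested on simulated data. P-values measure the spread between mice. The number of arrays limits precision, with a median SE of 0.22.

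The members and lists were chosen with earlier results of these data known, so no list was tested. Named were all measured members, the 3 genes with the smallest p of each further list and the 3 brightest macrophage markers. No gene was on more than 1 list. Alternatives changed the probe set rule, normalization, filter, variance model, block, covariate and weights, and left out each array.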

Additional observations from a re-analysis of the deposited data

How the results depend on the processing

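The count of members past an adjusted p under 0.05 was 0 under each alternative other than leaving out single arrays, where it ran from 0 to 7. Members higher at an unadjusted limma p under 0.05 numbered 11 to 18 under the alternatives that kept all arrays and 8 to 15 with 1 array left out, and lower ones 0 throughout. Of the other lysosomal genes, 13 to 32 were higher with 1 array left out and 0 to 6 lower. Lower ones numbered 2 with the mean of all probe sets, 4 with arrays centred on the median gene, 5 with quantile normalization repeated, 7 with array weights, and 0 with the filter on dim genes or eBayes with trend. Median differences within the lower-numbered pair were 0.07 for all members, 0.07 for the pump and 0.06 for hydrolases and membrane proteins. No paired analysis was possible because the labels hold no shared replicate numbers. When a block term held the 2 animal-number series apart, 11 members were higher at an unadjusted p under 0.05 and 0 genes passed adjustment over all genes. Genes past adjustment numbered 16 with arrays centred, 12 with the filter, 10 with trend, 6 with the Gapdh covariate, 16 with array weights, 9 without wild type 3 and 816 without knockout 3, and the cause was not tested.

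For the 62 genes named by the rule, 1052 alternative values were computed, of which 23 newly passed adjustment, all without knockout 3. With a processing step changed or 1 array left out, 15 values changed sign. That count does not cover values from either animal-number series alone, between which 10 members had opposite signs. With all arrays kept, sign changes were −0.07 for Atp6v1e1 with plain probe sets preferred, −0.08, −0.20 and −0.0039 for Atp6v1g1 with the mean of all probe sets, plain probe sets preferred and array weights, and −0.07 and −0.0031 for Smpd1 with the mean of all probe sets and array weights. Leaving out single arrays gave −0.14 to 0.24 for Atp6v1g1, −0.09 to 0.66 for Atp6v1h, −0.08 to 0.42 for Gaa, −0.14 to 0.52 for Asah1, −0.17 to 0.31 for Smpd1, −0.06 to 0.22 for Lamp2 and −0.14 to 0.37 for Mcoln1. None of these values had passed the test, and the cause of the changes was not tested.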

Other observations

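Probe sets of 1 gene did not always give the same size. The 35 members had 79 single-gene probe sets, and 24 members had more than 1. Of the 44 not used above, 12 had the opposite sign to the one used, the largest of these by 0.25 log2, in Smpd1; 4 of the 12 were among the 27 at least as bright as the median gene (mean log2 of 5.96). For Grn the brightest probe set differed by 0.50 between genotypes and the others by 0.70 and 1.07. The probe set of Psap not used differed by 1.29, against 0.87 for the one used, and that of Atp6v1a by 1.13, against 0.88. Smaller differences also occurred: 0.57 and 0.42 for Atp6v1c1, against 1.03, and 0.60 for Man2b1, against 0.98. For Atp6v0b the probe sets not used gave 0.77 and 0.29, against 0.75. Npc2 differed by 0.18 and 0.19 in its brighter probe sets, with 1.10 in a dimmer one (6.74 log2 in wild type). For Gla and Gusb, both of which led the hydrolases, the next probe sets differed by 1.40 and 1.51, close to the 1.68 and 1.62 given above. Atp6v0a1 differed by 0.93 and 0.82 in 2 further probe sets and by −0.07 in another.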
